A study of Mus musculus with 4 samples.

Results

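The genes described here code for 10 Golgi enzymes that build and finish the N-linked glycans of both gonadotropins, LH (luteinizing hormone) and FSH (follicle-stimulating hormone). They were picked by name for their role, knowing from earlier results of these data that Mgat5 was lower in the knockout, and all 10 were found among the 54532 genes of the deposited table. Poly(A) RNA had been sequenced from gonadotropes, the pituitary cells that make both hormones, sorted by flow cytometry from male mice of mixed strain aged 10 to 12 weeks. One group was labelled GATA2 cKO, for a conditional knockout (2 libraries), and the other control (2 libraries). The study's title calls the knockout gonadotrope-specific. The sources used here name neither the Cre driver nor the alleles of the control mice. They also do not say whether replicate libraries are separate animals, so the spread behind each p-value may be technical.

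Each gonadotropin is a pair of glycoproteins, the common alpha subunit (Cga) and a beta subunit (Lhb or Fshb), and their N-glycans govern how long the hormone circulates. In the Golgi, Mgat1 adds the GlcNAc sugar that opens the route from oligomannose to hybrid and complex glycans, Mgat2 starts the second arm, Mgat3 adds a bisecting GlcNAc and Mgat5 adds a further branch. Arms are then finished along alternative routes. On LH, B4galnt3 or B4galnt4 adds GalNAc and Chst8 or Chst9 adds sulfate to it, a mark by which the liver clears the hormone, whereas arms that carry galactose are capped with sialic acid by enzymes such as St3gal3 and St6gal1.

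Total estimated counts were 15541553 and 18362182 in the cKO libraries and 10646909 and 21135301 in the controls. Control replicate 1, the shallowest, stood apart from the rest: across genes Pearson's r of log2 CPM (counts scaled to a library of 1000000) was 0.841 and 0.854 with the cKO libraries and 0.889 with control replicate 2, against 0.917 and 0.928 between control replicate 2 and the cKO libraries. Gata2 had 221 and 214 CPM in the cKO libraries, against 537 and 526 CPM in the controls, and passed the test across all genes (edgeR quasi-likelihood test, log2 fold change -1.29, SE 0.14, adjusted p = 0.0473). The series' design text speaks of whole pituitaries where the sample labels say sorted cells. Gonadotrope markers summed to 7454 and 8741 CPM in the cKO libraries and to 16427 and 14829 CPM in the controls, and none of those 10 was at 0. Markers of corticotropes and melanotropes summed to 6338 and 7507 CPM in the cKO libraries and to 7528 and 10201 CPM in the controls, so RNA of other pituitary cells was present in every library.

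Of the 9 enzyme genes other than Mgat5, 0 passed the threshold (Benjamini-Hochberg adjusted p under 0.05 in edgeR's quasi-likelihood test) in either direction, where 0.0576% of the 17349 genes tested did (0.0461% lower and 0.0115% higher). At an unadjusted p under 0.05, which 7.04% of all tested genes met, the count was also 0 of 9, and it was 0 at the adjusted threshold with DESeq2, with limma-voom and with edgeR's newer method. All 10 passed the filter on low counts, and the counts of all 10 were whole numbers in every library. The 9 had log2 fold changes between -0.30 and 0.60, with 6 above 0 and a median of 0.17, and the median over all tested genes was 0.03. These include B4galnt3 and Chst9, which had only 123 and 57 counts in all. For the 7 of the 9 with more than 1000 counts in all, the 95% intervals of the log2 fold change spanned from -1.19 at the lowest to 1.45 at the highest. A change within a gene's own interval remains compatible with these 2 libraries a group. The intervals are not limits of detection, because a call also had to pass the adjustment over all 17349 genes tested.

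**Figure D1:**
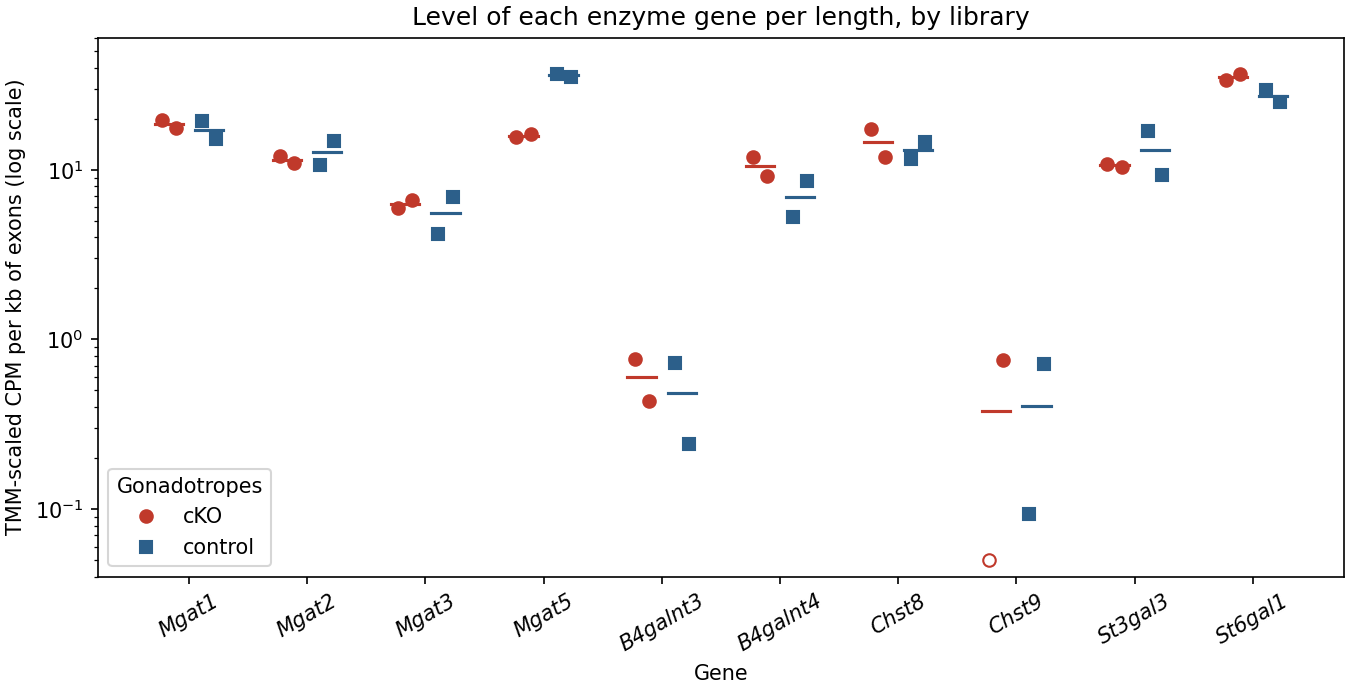
Level of each of the 10 enzyme genes per length, in CPM scaled by TMM factors per kb of annotated exons, on a log axis. Points are libraries, circles cKO and squares control, bars are group means (n = 2 each), and the open circle at the foot marks Chst9 at 0 counts in cKO replicate 1. Mgat5 is near 16 in both cKO libraries and near 36 in both controls, and the groups lie close together or overlap for the others.

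Mgat5 codes for the GlcNAc transferase that adds the branch from which long polylactosamine chains are often built (ENSMUSG00000036155.13, mm10 chromosome 1, 127205015 to 127488336, plus strand). Its levels were 159.8 and 167 CPM in the cKO libraries, against 378 and 365 CPM in the controls. Replicates of a group lay close together and the groups did not overlap, which 39.0% of all tested genes also showed (19.3% with both cKO libraries below both controls). The log2 fold change was -1.18 (SE 0.15), which is 44.0% of the control level. This value is given as a description because it was known when the genes were chosen. Mgat5 was not among the 10 genes past the threshold in the main edgeR fit, and whether it passed depended on the method. With each library left out in turn the value stayed between -1.23 and -1.15. Mgat5 shares 152 bases of exon with Tmem163 on the other strand, and nothing in the sources says whether counting used strand. Tmem163 had 2290 counts over all libraries, against 17250 for Mgat5.

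Most gonadotrope markers were also at lower values in cKO. Of 10 gonadotrope markers, 9 had log2 fold changes below 0, with a median of -0.59, and Fshb passed the threshold. Of 5 lactotrope markers 4 had values above 0 and 0 passed the threshold, with sums of 1370.0 and 1395 CPM in the cKO libraries against 375 and 664 CPM in the controls. Of the stem cell markers 3 of 3 tested had values above 0 (median 0.64). They summed to 103 and 110 CPM in the cKO libraries, against 54.4 and 56.3 CPM in the controls. For thyrotrope markers it was 2 of 3, and Tshb, the hormone gene among them, went the other way. Tshb had 7.33 and 7.08 CPM in the cKO libraries, against 22.3 and 13.7 CPM in the controls. For fibroblast and pericyte markers it was 2 of 3 tested, but the sums of that list overlapped. They were 18.6 and 12.7 CPM in the cKO libraries and 0.0909 and 16.5 CPM in the controls. Other lists did not have most values above 0: 0 of 5 corticotrope and melanotrope markers had values above 0 (median -0.37). The counts were 2 of 4 for somatotrope, 1 of 4 for endothelial, 1 of 5 for erythroid and 0 of 1 tested for macrophage and leukocyte markers. Somatotrope markers differed widely between replicates of a group. They summed to 2187 and 418 CPM in the cKO libraries and to 1147 and 2404 CPM in the controls. Mitochondrial transcripts (13 genes) took 7.58% and 8.74% of counts in the cKO libraries, against 5.36% and 6.04% in the controls. The part of any of these in the difference of Mgat5 was not tested, and in RNA from many cells, fewer cells of a type and less RNA per cell cannot be told apart. Ratios within a library do not depend on scaling between libraries. There were 0.639 and 0.525 Mgat5 counts per count of Gnrhr, the receptor for gonadotropin-releasing hormone, in the cKO libraries and 1.16 and 0.765 in the controls. Per count of Nr5a1, a gonadotrope transcription factor, there were 0.582 and 0.450 in the cKO libraries and 1.36 and 0.918 in the controls. Both ratios were lower in each cKO library than in each control, but the direction depended on the denominator. Per count of Cga there were 0.0463 and 0.040 in the cKO libraries, against 0.0625 and 0.0594 in the controls. Per count of Lhb the groups overlapped, with 0.0772 and 0.0745 in the cKO libraries and 0.0735 and 0.0889 in the controls. Per count of Gata2 (0.723 and 0.780 in cKO, 0.704 and 0.693 in control) and of Fshb (0.259 and 0.206 in cKO, 0.116 and 0.146 in control) both cKO libraries lay above both controls, and Gata2 and Fshb themselves passed the threshold as lower. Gnrhr and Nr5a1 are 2 of the 10 gonadotrope markers, with log2 fold changes of -0.50 and -0.06. Pitx1, another of the 10, lay at -1.57, further below 0 than Mgat5 at -1.18. It did not pass the threshold (edgeR adjusted p = 0.0575), and no ratio to it was computed. Of all tested genes, 8.52% had a log2 fold change below that of Mgat5.

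The promoter of Mgat5 was searched for letters that GATA factors are known to bind, since Gata2 is the gene deleted. It is shown with those of B4galnt4 and St6gal1, the other genes whose groups did not overlap. The RefSeq windows (GRCm38.p6, the assembly also called mm10) run 5′ to 3′ on the gene's strand, from 250 bases before to 50 after an annotated start. Capitals mark GATA on either strand, which reads TATC when it lies on the other strand, and the whole of any longer word on either strand in which GATA follows an A or a T and precedes an A or a G. The windows are chr1:127204736-127205035 (plus strand) for Mgat5, chr7:141060728-141061027 (plus strand) for B4galnt4, and chr16:23224490-23224789 and chr16:23290220-23290519 (plus strand) for the first and the last of 3 starts of St6gal1.
Mgat5: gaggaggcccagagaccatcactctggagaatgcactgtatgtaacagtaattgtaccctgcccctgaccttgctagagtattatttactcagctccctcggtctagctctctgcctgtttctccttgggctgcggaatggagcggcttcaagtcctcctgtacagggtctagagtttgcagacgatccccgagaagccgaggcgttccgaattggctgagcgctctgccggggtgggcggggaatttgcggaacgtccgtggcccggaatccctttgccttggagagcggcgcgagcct
B4galnt4: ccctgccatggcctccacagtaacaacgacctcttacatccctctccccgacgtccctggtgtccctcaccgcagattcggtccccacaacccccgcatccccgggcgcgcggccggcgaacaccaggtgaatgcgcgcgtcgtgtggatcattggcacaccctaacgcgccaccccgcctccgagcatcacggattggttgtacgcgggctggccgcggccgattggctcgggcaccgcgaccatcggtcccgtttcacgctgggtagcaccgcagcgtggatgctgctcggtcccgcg
St6gal1 first start: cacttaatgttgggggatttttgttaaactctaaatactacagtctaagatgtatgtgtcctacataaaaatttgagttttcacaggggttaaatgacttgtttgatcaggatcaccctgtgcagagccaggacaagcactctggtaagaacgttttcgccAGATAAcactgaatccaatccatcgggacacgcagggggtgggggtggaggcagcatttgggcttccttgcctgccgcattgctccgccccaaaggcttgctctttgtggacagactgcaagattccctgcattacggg
St6gal1 last start: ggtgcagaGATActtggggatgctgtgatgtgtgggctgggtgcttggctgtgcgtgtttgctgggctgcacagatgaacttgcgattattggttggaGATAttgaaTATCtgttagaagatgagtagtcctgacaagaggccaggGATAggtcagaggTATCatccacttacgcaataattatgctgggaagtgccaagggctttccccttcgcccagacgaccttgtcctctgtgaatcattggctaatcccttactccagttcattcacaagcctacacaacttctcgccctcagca
The Mgat5 and B4galnt4 windows and the middle of the 3 of St6gal1 held no GATA on either strand. The first window of St6gal1 held 1 match, which begins 88 bases before the start and lies within the longer word AGATAA, and the last held 5, none within a longer word. Over all 32851 windows of the table, 57.9% held GATA on either strand and 29.8% held 1 of the longer words. A match is a description and not a site of binding, and no match says only that these letters are not in this window. RefSeq windows were found for 8 of the 10 genes. Those of Mgat2, Chst8 and St3gal3 held no GATA, that of B4galnt3 held 1 match and 1 of the 3 windows of Mgat1 held 1.

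The enzymes that act before Mgat5 on the same glycan overlapped between the groups. Mgat1 (ENSMUSG00000020346.16, chromosome 11, 49244191 to 49263030) had 92.4 and 83.2 CPM in the cKO libraries, against 91.6 and 71.4 CPM in the controls. The difference was 0.11 on the log2 scale (SE 0.22, 95% interval -0.41 to 0.63, edgeR adjusted p = 0.999). Mgat2 (ENSMUSG00000043998.10, chromosome 12, 69184157 to 69186770) had 31.4 and 28.6 CPM in the cKO libraries, against 27.9 and 38.8 CPM in the controls. Both cKO libraries lay between the controls, and the log2 fold change was -0.16 (SE 0.33, interval -0.94 to 0.63, edgeR adjusted p = 0.999). Mgat3, whose bisecting GlcNAc blocks further branching in the Golgi (ENSMUSG00000042428.6, chromosome 15, 80173721 to 80215519), had 27.9 and 31.1 CPM in the cKO libraries, against 19.6 and 32.2 CPM in the controls. Here too both cKO libraries lay between the controls, with a log2 fold change of 0.19 (SE 0.38, interval -0.71 to 1.09, edgeR adjusted p = 0.999). Direction is not settled for any of these: it turned round for Mgat1 (-0.057) and Mgat2 (0.11) without control replicate 2 and for Mgat3 (-0.13) without control replicate 1.

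The balance between the branching and the bisecting enzyme differed between the libraries of the groups. Mgat5 made up 72.2% and 70.9% of Mgat3 plus Mgat5 transcripts per length in the cKO libraries, against 89.8% and 83.7% in the controls. There were 1.73 and 2.01 Mgat5 counts per Mgat1 count in the cKO libraries, against 4.13 and 5.10 in the controls, and 5.08 and 5.86 per Mgat2 count in the cKO libraries, against 13.6 and 9.39 in the controls. Among all 10 genes, Mgat5 held 12.2% and 13.5% of the summed CPM per kb in the cKO libraries, against 27.2% and 27.1% in the controls. These ratios carry the Mgat5 value that was known beforehand and are given without a test.

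**Figure D2:**
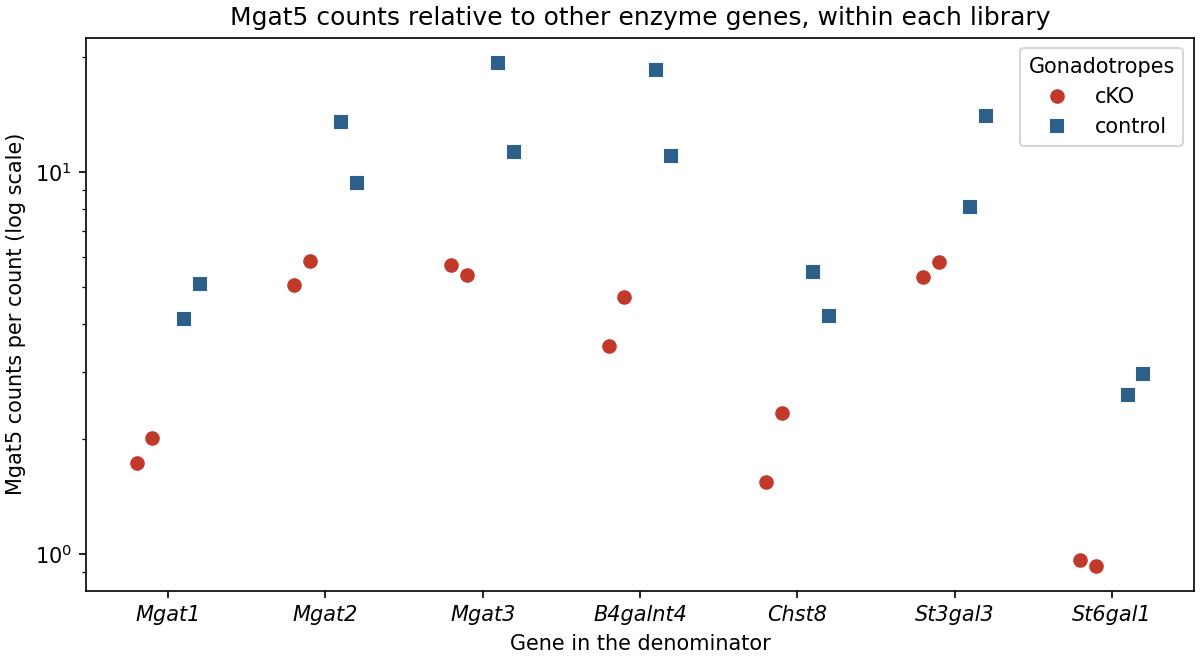
Mgat5 counts divided by the counts of each of 7 other enzyme genes within the same library, on a log axis, with cKO as circles and control as squares. For each denominator both cKO libraries lie below both controls, from 0.963 and 0.932 against 2.62 and 2.97 for St6gal1 to 3.51 and 4.72 against 18.6 and 11.0 for B4galnt4.

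The GalNAc transferases that begin the LH-type ending, in which GalNAc replaces galactose, were present mainly as B4galnt4. B4galnt4 (ENSMUSG00000055629.5, chromosome 7, 141061104 to 141072400) had 45.5 and 35.5 CPM in the cKO libraries, against 20.4 and 33.0 CPM in the controls. Both cKO libraries lay above both controls, as they did for 19.7% of all tested genes, but the nearest libraries of the groups differed by less than the replicates of either group. The log2 fold change was 0.60 (SE 0.36, 95% interval -0.26 to 1.45, edgeR adjusted p = 0.860). It was 0.99 without control replicate 2 and 0.29 without control replicate 1, so 1 library set much of its size. B4galnt3 (ENSMUSG00000041372.10, chromosome 6, 120203073 to 120294559, minus strand) had 45 and 29 counts in the cKO libraries, against 30 and 19 counts in the controls, or 2.89 and 1.63 CPM against 2.73 and 0.908 CPM. The groups overlapped, and the interval of the log2 fold change, -4.39 to 5.02, leaves its size unknown. B4galnt3 shares 169 bases of exon with D330020A13Rik on the other strand, which had 72 counts in all against 123, so even this low level is uncertain. B4galnt4 made up 93.9% and 95.5% of both per length in the cKO libraries, against 88.0% and 97.3% in the controls.

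The sulfotransferase that completes this ending was present mainly as Chst8, the form known from pituitary. Chst8 (ENSMUSG00000060402.7, chromosome 7, 34674468 to 34812711, minus strand) had 103.7 and 71.3 CPM in the cKO libraries, against 68.9 and 86.9 CPM in the controls. The groups overlapped, and the log2 fold change was 0.17 (SE 0.26, 95% interval -0.45 to 0.78, edgeR adjusted p = 0.999). Without cKO replicate 1 it was -0.13. Chst9, its close relative (ENSMUSG00000047161.12, chromosome 18, 15451924 to 15760157, minus strand), had 0 and 26 counts in the cKO libraries, against 2 and 29 counts in the controls. Replicate 2 of each group thus held nearly all of its counts, and a count of 0 in cKO replicate 1 allows a level of up to 0.193 CPM. This limit is one of counting error alone, because the reads carried no molecular identifiers that would mark independent molecules. Chst8 made up 100% and 94.1% of both per length in the cKO libraries, against 99.2% and 95.3% in the controls. Per length there were 1.47 and 1.30 Chst8 transcripts per B4galnt4 transcript in the cKO libraries, against 2.18 and 1.70 in the controls.

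Both sialyltransferase genes were present, with St6gal1 at the greater level per length. St6gal1 caps galactose with sialic acid in the linkage common on serum glycoproteins (ENSMUSG00000022885.16, chromosome 16, 23224740 to 23360350). It had 165.9 and 179 CPM in the cKO libraries, against 144 and 123 CPM in the controls. Both cKO libraries lay above both controls, as they did for 19.7% of all tested genes. The log2 fold change of St6gal1 was 0.37 (SE 0.18, interval -0.05 to 0.79, edgeR adjusted p = 0.741). It stayed between 0.26 and 0.48 with each library left out in turn. St3gal3, which attaches sialic acid to galactose in another linkage (ENSMUSG00000028538.12, chromosome 4, 117932154 to 118134914, minus strand), had 30.1 and 28.7 CPM in the cKO libraries, against 46.7 and 25.9 CPM in the controls. Both cKO libraries lay between the controls, and the log2 fold change was -0.30 (SE 0.38, interval -1.19 to 0.58, edgeR adjusted p = 0.999). Without control replicate 1 it was 0.17. St6gal1 made up 75.6% and 77.9% of both per length in the cKO libraries, against 63.5% and 72.7% in the controls.

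**Figure D3:**
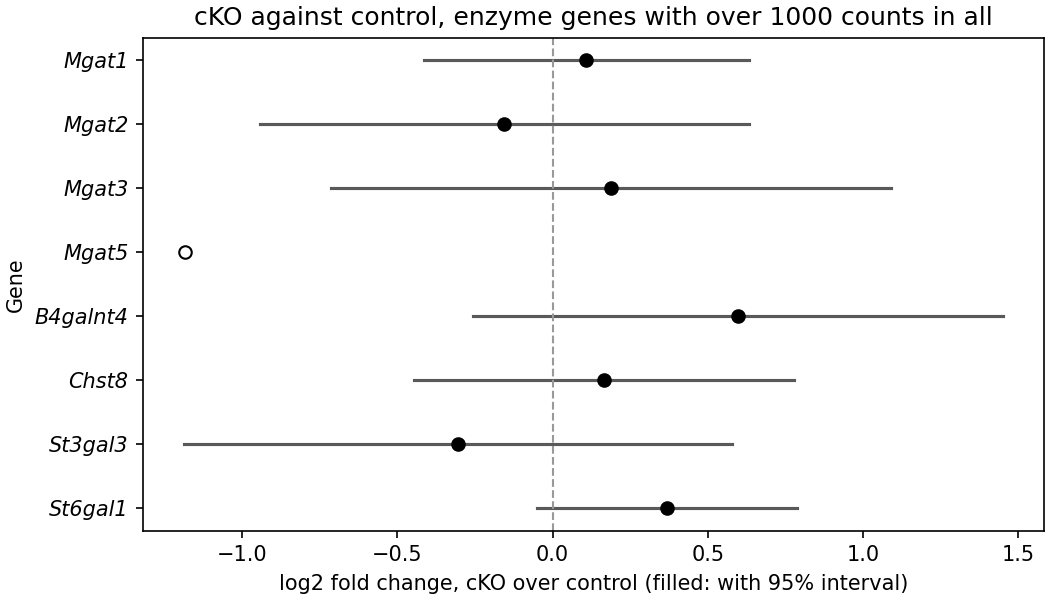
Log2 fold change, cKO over control, of the 8 enzyme genes with more than 1000 counts in all, with 95% intervals from edgeR's quasi-likelihood fit for the 7 that were tested and an open point for Mgat5, which is a description. The 7 intervals all include 0, and Mgat5 lies at -1.18.

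The order of the genes by level was set out in CPM per kb of exons, since longer transcripts give more reads. In the cKO libraries it ran from St6gal1 (35.1 ± 1.95), Mgat1 (18.6 ± 1.37), Mgat5 (15.9 ± 0.517) and Chst8 (14.7 ± 3.84) through Mgat2 (11.5 ± 0.783), St3gal3 (10.6 ± 0.365) and B4galnt4 (10.5 ± 1.85) to Mgat3 (6.32 ± 0.481), with B4galnt3 (0.599 ± 0.236) far below (SD, n = 2 each). In the controls Mgat5 came at the top (36.1 ± 0.945), before St6gal1 (27.2 ± 3.11) and Mgat1 (17.2 ± 3.01). St3gal3 (13.1 ± 5.31), Chst8 (13.1 ± 2.13) and Mgat2 (12.8 ± 2.95) followed, then B4galnt4 (6.93 ± 2.32), Mgat3 (5.54 ± 1.91) and B4galnt3 (0.481 ± 0.341). Chst9 came last by mean in both groups, at 0 and 0.756 CPM per kb in the cKO libraries and 0.0940 and 0.717 in the controls. Neighbours whose means differed by less than the larger of their SDs were, in the cKO libraries, those from Mgat5 to Mgat2, St3gal3 with B4galnt4, and B4galnt3 with Chst9. In the controls they were those from Mgat1 to Mgat2, B4galnt4 with Mgat3, and B4galnt3 with Chst9, so places within these runs are not settled. With the longest annotated transcript as the length, Mgat5 came 1st in the controls and 4th instead of 3rd in the cKO libraries. Chst8 has 5.97 kb of annotated exons but 3.18 kb in its longest transcript. Its place in this order and its ratio to B4galnt4 therefore also depend on the length used.

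For the hormone subunits that carry these glycans, both cKO libraries lay below both controls, which 19.3% of all tested genes also showed. Fshb had 618 and 812 CPM in the cKO libraries, against 3263 and 2496 CPM in the controls, and passed the threshold (edgeR log2 fold change -2.01, SE 0.18, adjusted p = 0.0381). Lhb had 2069 and 2245 CPM in the cKO libraries, against 5144 and 4099 CPM in the controls, with a log2 fold change of -1.10 (SE 0.13) and an adjusted p of 0.0777 by edgeR. Cga had 3448 and 4185 CPM in the cKO libraries, against 6054 and 6137 CPM in the controls, with a log2 fold change of -0.68 (SE 0.11) and an adjusted p of 0.212 by edgeR. FSH deficiency is named in the study's title, which may itself draw on these samples, so Fshb is no independent evidence of direction.

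The enzymes with at least 10 counts in every library were also set against these substrates within each library. The fall of Mgat5 was known beforehand. Mgat5 had 2.20 and 1.98 units per 1000 of summed Cga, Lhb and Fshb (counts per kb of exons on both sides) in the cKO libraries, against 2.30 and 2.52 in the controls, so this ratio was lower in the cKO libraries by far less than the Mgat5 level was. Chst8 had 2.46 and 1.46 in the cKO libraries, against 0.723 and 1.04 in the controls. B4galnt4 had 1.68 and 1.12 in the cKO libraries, against 0.331 and 0.611 in the controls. St6gal1 had 4.79 and 4.45 in the cKO libraries, against 1.84 and 1.78 in the controls. Both cKO libraries lay above both controls for these 3 and likewise for Mgat1, Mgat2, Mgat3, B4galnt3 and St3gal3. The lower denominator in cKO enters every one of these ratios, so a gene at the same level in both groups would also lie above. The share of all tested genes that did so was not counted. These ratios are descriptions, and transcript ratios say nothing of the glycans on the hormone, which were not measured here.

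Genes of the wider pathway were read from 8 lists drawn up from general knowledge, with 91 tested genes in all. Of these 0 passed the threshold in edgeR's test, where 0.0576% of all genes did. At an unadjusted p under 0.05 there were 5 with values above 0 and 7 below, and 7.04% of all tested genes met that rule. DESeq2 called 10 of the 91, where it called 5.55% of all tested genes (963), and limma-voom called 1, where it called 1.48% (256).

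Subunits of the oligosaccharyltransferase, which transfers the preformed glycan to the growing protein in the endoplasmic reticulum, had values mostly below 0. Of 12 tested subunits 11 had values below 0, with a median log2 fold change of -0.34, against 0.03 over all tested genes, and 0 passed the threshold. Both cKO libraries lay below both controls for 6 of the 12, against 19.3% of all tested genes. Rpn2 had 209 and 221 CPM in the cKO libraries, against 314 and 281 CPM in the controls (log2 fold change -0.47, SE 0.15, edgeR adjusted p = 0.634). Ddost had 156 and 197 CPM in the cKO libraries, against 229 and 274 CPM in the controls (-0.51, SE 0.19). Stt3a, a catalytic subunit, had 144 and 159 CPM in the cKO libraries, against 211 and 201 CPM in the controls (-0.44, SE 0.16). Stt3b, the alternative catalytic subunit and named after its values were seen, had 183 and 194 CPM in the cKO libraries, against 185 and 200.3 CPM in the controls (-0.03, SE 0.16).

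Assembly of the lipid-linked precursor gave 8 of 22 tested genes above 0 and 14 below, with a median of -0.19 and 0 past the threshold. Alg5, which makes the glucose donor of this pathway, had 6.04 and 6.01 CPM in the cKO libraries, against 26.9 and 14.4 CPM in the controls (log2 fold change -1.77, SE 0.58). Alg2, an early mannosyltransferase, had 192 and 196 CPM in the cKO libraries, against 134 and 150.1 CPM in the controls (0.45, SE 0.17). Dpm3, a subunit of the enzyme that makes dolichol-linked mannose, had a log2 fold change of -1.44 (SE 0.74), which was -0.84 without cKO replicate 1 and -2.50 without cKO replicate 2. Their adjusted p-values in edgeR's test lay between 0.642 and 0.767.

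Trimming and other branching enzymes gave 5 of 14 tested genes above 0 and 9 below, with a median of -0.17 and 0 past the threshold. Mgat4b, which adds the branch on the arm opposite to that of Mgat5, had 96.6 and 100.3 CPM in the cKO libraries, against 67.4 and 64.6 CPM in the controls. On the log2 scale it differed by 0.58 (SE 0.20, edgeR adjusted p = 0.649). Both cKO libraries lay above both controls, as they did for 19.7% of all tested genes. The trimming mannosidases Man1a and Man1c1 had log2 fold changes of 1.11 (SE 0.50) and -1.39 (SE 0.67), and both rested on the control libraries. Man1a was at 2.06 without control replicate 2 and at 0.55 without control replicate 1, and Man1c1 was at -0.23 without control replicate 2 and at -2.02 without control replicate 1. Galactosyltransferases and the remaining GalNAc transferases gave 3 of 7 tested genes above 0, with a median of -0.03 and 0 past the threshold. B4galt5, of the galactosyltransferase family, had 483 and 412 CPM in the cKO libraries, against 299.5 and 308 CPM in the controls (0.56, SE 0.15, edgeR adjusted p = 0.529). B4galt1, the galactosyltransferase that competes with B4galnt4 for the same acceptor sugar, had 163.9 and 132 CPM in the cKO libraries, against 102 and 123 CPM in the controls (0.40, SE 0.20). B4galnt1, a ganglioside enzyme, had a log2 fold change of -1.08 (SE 0.95), which was -0.40 without cKO replicate 1 and -2.44 without cKO replicate 2. B4galnt2 was at 0 counts in every library.

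The remaining sialyltransferases gave 3 of 14 tested genes above 0 and 11 below, with a median of -0.42 and 0 past the threshold. Both cKO libraries lay below both controls for 7 of the 14, against 19.3% of all tested genes. St8sia3, of the family that links sialic acids to one another, had 59.1 and 69.3 CPM in the cKO libraries, against 106 and 85.0 CPM in the controls (log2 fold change -0.57, SE 0.23, edgeR adjusted p = 0.692). St3gal5, which makes the ganglioside GM3, had a log2 fold change of -0.40 (SE 0.21). St6galnac4 had 38.5 and 46.1 CPM in the cKO libraries, against 22.5 and 23.9 CPM in the controls (0.87, SE 0.31, edgeR adjusted p = 0.654). Other Golgi carbohydrate sulfotransferases gave 0 of 5 tested genes above 0, with a median of -0.43 and 0 past the threshold. Log2 fold changes were -0.56 (SE 0.51) for Chst12, a chondroitin sulfotransferase, -0.43 (SE 0.49) for Chst10, which sulfates glucuronic acid, and -0.58 (SE 0.66) for Chst2, which sulfates GlcNAc. That of Chst12 was -0.12 without control replicate 2, and that of Chst10 was -0.16 without cKO replicate 1. Chst4, Chst7 and Chst13 were at 0 counts in every library.

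Supply of the sulfate donor PAPS, on which Chst8 depends, gave 3 of 5 tested genes above 0, with a median of 0.53 and 0 past the threshold. Papss2, a PAPS synthase, had 48.0 and 44.3 CPM in the cKO libraries, against 30.0 and 26.3 CPM in the controls (log2 fold change 0.71, SE 0.29, edgeR adjusted p = 0.695). Slc35b3, a Golgi PAPS transporter, had 17.5 and 13.0 CPM in the cKO libraries, against 3.27 and 6.69 CPM in the controls (1.61, SE 0.70). Impad1, a Golgi phosphatase that clears the by-product of sulfation, differed by 0.53 (SE 0.35), or by 0.15 without cKO replicate 1 and by 1.01 without control replicate 2. Supply of nucleotide sugars gave 6 of 12 tested genes above 0, with a median of -0.08 and 0 past the threshold. Slc35a3, which carries UDP-GlcNAc, the donor of the Mgat enzymes, into the Golgi, had 16.2 and 16.2 CPM in the cKO libraries, against 46.2 and 26.7 CPM in the controls (-1.17, SE 0.40, edgeR adjusted p = 0.647). The values were -1.29 (SE 0.59) for Slc35a1, the carrier of CMP-sialic acid, and 0.58 (SE 0.32) for Cmas, which makes that donor. With 1 library left out they lay between -1.94 and -0.85 for Slc35a1 and between 0.29 and 0.96 for Cmas, and Slc35a3 was at -0.73 without control replicate 1.

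**Figure D4:**
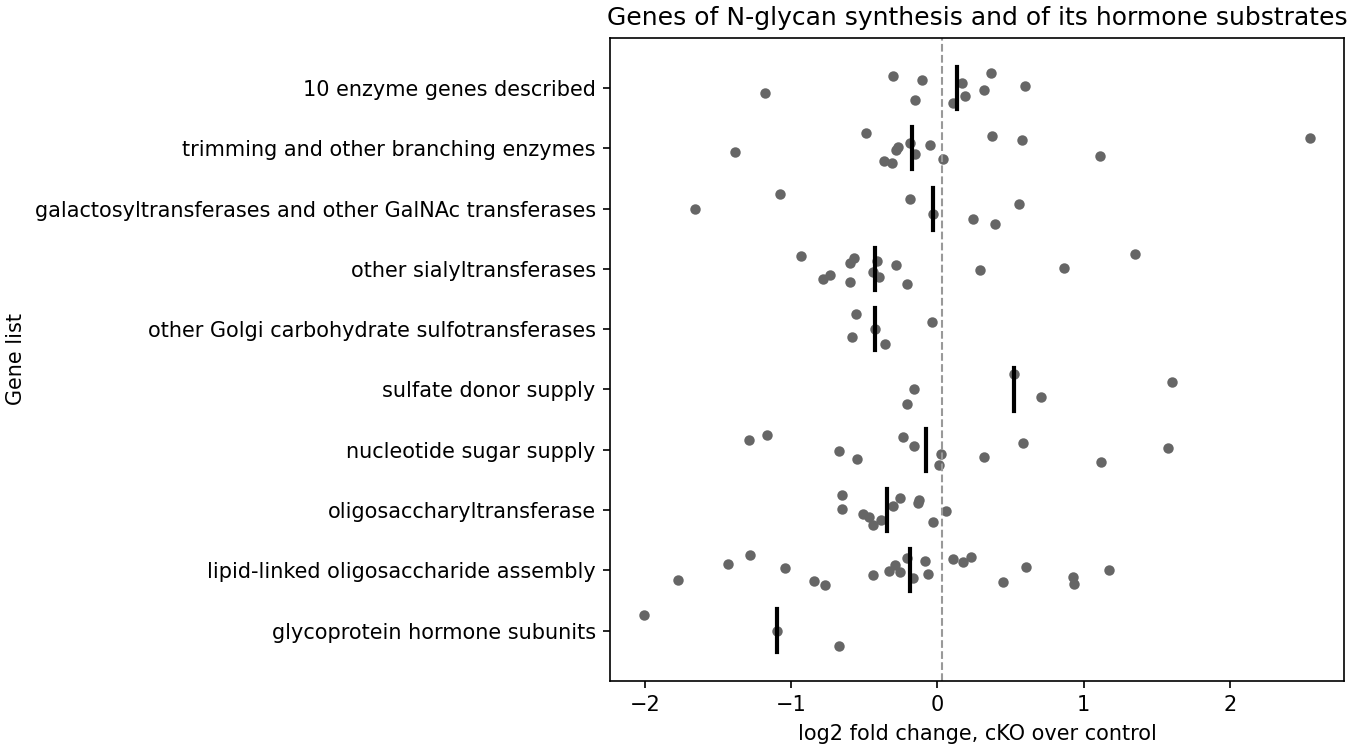
Log2 fold change, cKO over control, of each tested gene (points) in the 10 enzyme genes, 8 further lists of N-glycan synthesis and the hormone subunits, with the median of each list as a thick bar and the median of all tested genes, 0.03, as a dashed line. Of the genes shown, Fshb at -2.01 is the 1 that passed the threshold, and 11 of 12 oligosaccharyltransferase subunits lie below 0.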

How the data were processed

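The submitters' processing notes name STAR 2.5.1b, featureCounts 1.5.0-p1 and the mm10 build. The deposited table holds estimated counts per gene with no scaling between libraries, and 4.50% of its values were not whole numbers. Which annotation was counted, whether strand was used and how multi-mapped reads were handled: not given in the sources used here. Identifiers, with versions left off, were matched to GENCODE M21 on the same build (54495 of 54532), which gave names, positions and exon lengths.

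Counts were rounded, filtered with filterByExpr by group (at least 10 counts, at least 15 in total, 17349 genes kept) and scaled by TMM factors. Groups were compared with edgeR 4.0.16 in R 4.3.3 by its quasi-likelihood test in the legacy form (two-sided, no covariate), with p-values adjusted over all tested genes. SE is the size of the log2 fold change divided by the square root of F, and 95% intervals use the test's degrees of freedom. Positive log2 fold changes mean higher in cKO. The tests were also run on counts simulated from the variation estimated in these same libraries. That run is no evidence for the calls, and its outcome is not used here.

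The genes, lists, tests and alternatives were chosen with earlier results of these data known. Named genes are the 10 enzyme genes, Gata2, the hormone subunits and the 3 with the smallest p in each of 8 pathway lists. Impad1 is listed under both its older and its current symbol, and the older one matched. Alternatives were other scalings and filters, DESeq2 1.42.0, limma-voom (limma 3.58.1), edgeR's newer method, a replicate block, unrounded counts and each library left out.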

Additional observations from a re-analysis of the deposited data

How the results depend on the processing

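Of the 126 values of the 9 enzyme genes other than Mgat5 under the alternatives, 117 kept their direction, 9 turned round and 0 passed the threshold. All 9 turned with 1 library left out, where the ranges were -0.057 to 0.29 for Mgat1, -0.38 to 0.11 for Mgat2, -0.13 to 0.60 for Mgat3, -0.27 to 1.30 for B4galnt3, -0.13 to 0.40 for Chst8, -6.65 to 1.96 for Chst9 and -0.67 to 0.17 for St3gal3. The libraries concerned were control replicate 2 (Mgat1, Mgat2, B4galnt3, Chst9), control replicate 1 (Mgat3, St3gal3) and cKO replicate 1 (B4galnt3, Chst8, Chst9). The Mgat5 value lay between -1.22 and -1.18 in fits of all libraries and between -1.23 and -1.15 with 1 library left out. By mean level per length it ranked 1 in the controls throughout and 3 in cKO, but 4 with the longest transcript as length and 3 to 4 with 1 library left out.

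The count of 10 genes past the threshold was 963 by DESeq2, 256 by limma-voom, 47 by edgeR's newer method, 253 when no filter was applied (128 above 0, 125 below), 3 when 1 CPM in 2 libraries was required, and 66 to 681 when 1 library was left out. The count of 0 pathway genes became 10 with DESeq2, 1 with limma-voom and 0 to 2 with 1 library left out, the 2 being found without control replicate 2. The cause was not tested. Where a group is left with 1 library, its variation is taken to be that of the other group. Gata2 lost its call with 1 CPM in 2 libraries (adjusted p = 0.0620) and Fshb likewise (adjusted p = 0.0531), with edgeR values of -1.28 and -2.01. Lhb and Cga, which were not called in the main fit, passed with DESeq2 (adjusted p = 4.3e-10 and 3.7e-05). They also passed with limma-voom (adjusted p = 2.6e-17 and 3.8e-13) and with edgeR's newer method (adjusted p = 0.00365 and 0.0483).

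Replicate numbers showed no sign of pairing (same-numbered libraries' deviations from their group means correlated at -0.011 across genes). With the replicate block 7 genes passed, 0 of the 9 enzyme genes did, the Mgat5 value was -1.18 and that of Gata2 -1.29 (adjusted p = 0.0643). With 10646909 counts in the shallowest library, Chst9 and B4galnt3 were too low for the size or direction of a fold change to be known. Their values are still counted among those of the 9 enzyme genes.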
